A study of Sus scrofa with 6 samples.

Results

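The genes described here move proteins and membrane between the compartments of the cell. They are the RAB and ARF GTPases, the coats of transport vesicles, the channel through which secreted proteins enter the endoplasmic reticulum (ER), the SNARE fusion proteins, the sorting nexins, the VPS proteins of endosome and lysosome and the adaptors of clathrin. Members were the probe sets of an Affymetrix porcine array with exactly 1 gene symbol in the probe table of the array, a symbol that begins with RAB, SEC, SNX, VPS, STX, VAMP or SNAP and a digit, names ARF1 to ARF6 or a COPI subunit, or names a beta, gamma, mu or sigma subunit of the adaptor complexes AP-1 to AP-3. At least 3 of the 6 arrays also had to exceed a signal of 50. Of 185 probe sets with such a symbol, 180 passed this level. They represent 120 genes, among 19196 probe sets that were compared in all. The ovarian follicles belonged to 3 sows of the Large White and 3 of the Chinese Taihu breed (Chinese Erhualian in the labels), with 1 array per sow. All 6 sows had farrowed before and cycled normally, and each received 1000 IU of PMSG, which acts like FSH, and 500 IU of hCG, which acts like LH, 80 h later. Slaughter followed 30 to 38 h after hCG, when follicles over 5 mm were dissected. Each breed came from its own farm, so breed and farm cannot be told apart.

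In a secretory cell, new proteins pass through the SEC61 channel into the ER, leave it in COPII vesicles and cross the Golgi, while COPI vesicles carry escaped proteins and membrane back. RAB and ARF GTPases mark each compartment and recruit coats and tethers to it, and SNARE proteins on the vesicle and its target then pull the membranes together. Clathrin and its adaptors bring receptors such as the LDL receptor from the surface into endosomes, where sorting nexins and the retromer return them and the ESCRT complexes pass them to the lysosome. The follicle uses these routes to secrete inhibin and matrix and to take up lipoproteins for progesterone.

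The values are the authors' normalized signal intensities, linear and equalized between arrays, so that the total amount of RNA per follicle cannot be seen in them. Fewer cells of a type and less RNA per cell cannot be told apart in such samples. Chinese Taihu sow 1 stood apart from the rest. Its log2 signals had a Pearson correlation of 0.834 to 0.887 with the other arrays across all compared probe sets (genes are no independent replicates) and of 0.925 to 0.946 over the 180 traffic probe sets. Among the other 5 arrays the highest correlation over the traffic probe sets was 0.981, between Large White sow 3 and Chinese Taihu sow 3. INHA, an inhibin subunit made by granulosa cells, had a signal of 446 in Chinese Taihu sow 1, against 6510 to 10684 in the others. Not all of the 13 granulosa markers on the array followed it, and 2 were highest in that sow. These were INHBA, another inhibin subunit (899, against 233 to 387), and CYP19A1 (119, against 88.4 to 117). STAR, the mitochondrial cholesterol carrier of steroid synthesis, had 27.0 there and 982 to 12624 in the others. All 11 epithelial markers on the array had their highest signal in that sow, and 12 of 15 leukocyte markers in Large White sow 2. The 3 prime to 5 prime signal ratio of GAPDH, a measure of RNA integrity, was lowest in Large White sow 1 (1.21) and highest in Chinese Taihu sow 1 (1.85). The hybridization spike-ins, bacterial and phage transcripts added in fixed amounts, separated the breeds. The geometric mean of 9 such probe sets, relative to Large White, was 0.94, 0.99 and 1.08 on the Large White arrays against 1.34, 1.31 and 1.47 on the Chinese Taihu arrays, and the part of this in the breed differences was not tested.

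No traffic probe set differed between the breeds at an adjusted p below 0.05 (limma, 2-sided, Benjamini-Hochberg over all 19196; 0.0208% of all compared probe sets did). At an unadjusted p of at most 0.05, 6 of 180 were lower in Chinese Taihu sows and 0 were higher. These were probe sets of RAB8A, ARF2, SEC22C, STX10, VPS39 and AP1M1. The 6 are 3.33% of the members. Over all compared probe sets 3.86% had such a p, 2.3% lower and 1.56% higher, so the share is close to the background. The signals of the breeds did not overlap in 19 members (10.6%, against 9.1% of all), of which 14 were lower and 5 higher in Chinese Taihu sows (5.12% and 3.98% of all). With the methods' t-test (unpaired, 2-sided) there were 8 lower, 2 higher and 0 after adjustment. The count over all compared probe sets, 741 in either direction, was 846 in that test. With Large White sow 2 left out, 0 members were lower and 1 was higher, and the count over all was 373. The 1 that was higher was the other probe set of RAB8A, not the one called with all sows. Without Chinese Taihu sow 1, 4 were lower (703 over all). Without Chinese Taihu sow 2 there were 11 (1225 over all), and without Chinese Taihu sow 3 there were 3 (822 over all). The member counts and the counts over all probe sets both changed with the sow left out.

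The differences were small. Log2 differences, always given as Chinese Taihu minus Large White, ran from -0.77 for STX11 to 0.96 for RAB19, and none of the 180 exceeded 1 in either direction, while 533 of the 19196 compared probe sets did. The median of the members was -0.05, that of all compared probe sets 0.00. A negative sign was found in 110 members (61.1%) and in 49.7% of all. Of all compared probe sets, however, only 9094 carry 1 gene symbol, as every member does. By the brightest probe set of each gene, the median was -0.06 for the 120 member genes and -0.04 for all 6322 named genes. For 139 members (77.2%) the 95% interval of the difference excluded a change of 2-fold or more in both directions, against 65.9% of all compared probe sets. For the remaining 41 the interval reached past 2-fold, so a difference of that size is not excluded by these data. The members also varied less between sows, with a median range over the 6 arrays of 0.70 on the log2 scale against 0.81 for all. Members with several probe sets count more than once in these shares.

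**Figure D1:**
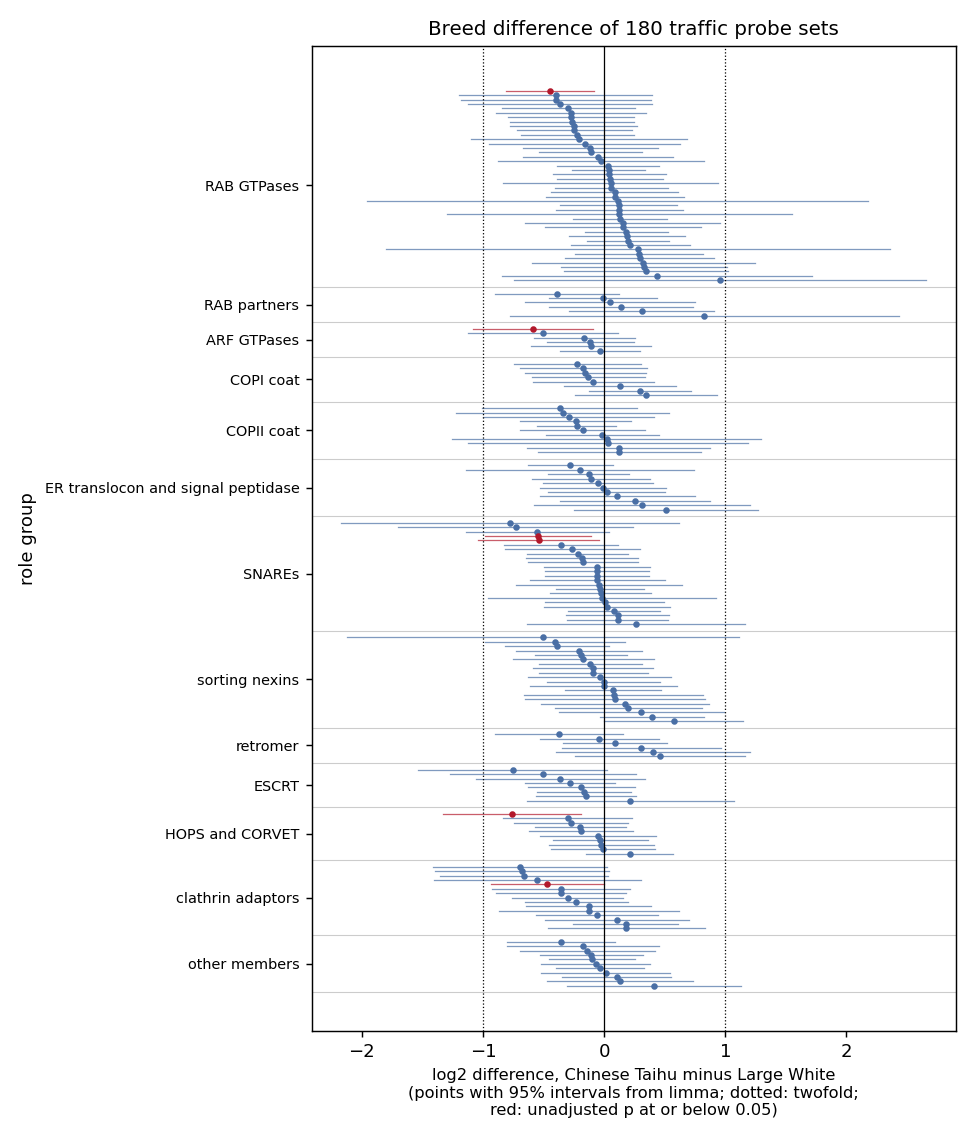
Log2 difference of the normalized signal (x axis, Chinese Taihu minus Large White) for the 180 traffic probe sets, grouped by role (y axis), 3 sows per breed. Points carry 95% intervals from limma, dotted lines mark 2-fold, and the 6 red points, all left of 0, have an unadjusted p of at most 0.05.

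The RAB GTPases are switches that give each membrane its identity. They had 44 probe sets of 26 genes with a median log2 difference of 0.06, 27 above and 17 below 0. Of these 1 passed the unadjusted p. RAB8A, which drives vesicles to the plasma membrane and the primary cilium, had signals of 86.3, 108 and 88.8 in the Large White sows against 66.1, 72.5 and 68.6 in the Chinese Taihu sows on that probe set. Every Chinese Taihu sow lay below every Large White sow (94.4 ± 11.9 and 69.1 ± 3.25, SD, n = 3; log2 -0.44, SE 0.15, unadjusted p = 0.024, adjusted p = 0.993). The other RAB8A probe set went the other way, with 167, 304 and 161 against 283, 227 and 253 (log2 0.33, SE 0.28, adjusted p = 0.993). The RefSeq span of RAB8A overlaps that of HSH2D.

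The RABs of the early secretory pathway and the endosomes had 0 probe sets at the unadjusted p. RAB1A, which acts between ER and Golgi, had 2072 to 3360 in the Large White sows against 2407 to 3268 in the Chinese Taihu sows. RAB2A, which acts at the Golgi, had 3527, 3206 and 3418 in the Large White sows against 3616, 3701 and 4332 in the Chinese Taihu sows. All 3 Chinese Taihu sows were above the Large White sows there, by a log2 difference of 0.19 (95% interval -0.14 to 0.53, adjusted p = 0.993). The dimmer RAB2A probe set had 658, 858 and 704 against 703, 834 and 870, with overlap (log2 0.12). RAB11A, the GTPase of recycling endosomes, had 1566 to 1830 and 1572 to 1965. RAB7A, which directs late endosomes to the lysosome, had 2085, 2947 and 2022 in the Large White sows against 1929, 1999 and 1926 in the Chinese Taihu sows. Its groups did not overlap, with a log2 difference of -0.25 (adjusted p = 0.993). The values of RAB1A and RAB11A are those of the brightest of their 3 and 2 probe sets. RAB1A, RAB7A and RAB11A were chosen after their values were seen.

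Of the proteins that act on RABs, 6 probe sets of 4 genes were members, and 0 passed the unadjusted p. RAB3GAP1, the catalytic part of a complex that switches RAB3 off and RAB18 on, had 497, 732 and 818 in the Large White sows against 820, 747 and 927 in the Chinese Taihu sows (log2 0.31, 95% interval -0.29 to 0.91). Its partner RAB3GAP2 lay between -0.01 and 0.14 on 3 probe sets. RAB3IL1, an exchange factor, had 165, 136 and 103 in the Large White sows against 93.3, 113 and 96.7 in the Chinese Taihu sows (log2 -0.39, adjusted p = 0.993), with an overlap between the breeds.

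The ARF GTPases recruit coats to Golgi and endosome membranes. All 6 probe sets of 5 genes had a negative difference (median -0.14), and Large White sow 2 had the highest signal in 5 of them. ARF2, a Golgi ARF, had 723, 958 and 866 in the Large White sows against 630, 490 and 570 in the Chinese Taihu sows, without overlap (849 ± 118 and 564 ± 70.2; log2 -0.59, SE 0.21, unadjusted p = 0.0265, adjusted p = 0.993). Its other probe set had 259, 314 and 244 against 249, 227 and 250, with overlap (log2 -0.16). ARF6, which acts in endocytosis and recycling at the cell surface, had 2105, 3048 and 1699 in the Large White sows against 1781, 1572 and 1365 in the Chinese Taihu sows. The highest of these came from Large White sow 2 (log2 -0.50, SE 0.26, adjusted p = 0.993). ARF1, the ARF of the COPI coat, which was chosen after its values were seen, had 5577 to 7200 and 5768 to 6552 (log2 -0.04, 95% interval -0.37 to 0.29).

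The 8 probe sets of the COPI coat had a median difference of -0.11, and all 8 intervals excluded 2-fold. COPB2, the beta prime subunit, had 144, 179 and 178 in the Large White sows against 188, 196 and 229 in the Chinese Taihu sows. These did not overlap (log2 0.30, 95% interval -0.12 to 0.71, adjusted p = 0.993). COPB1, the beta subunit, had differences of 0.35 and 0.13 on its probe sets, with overlapping sows. COPZ2, a zeta subunit, had 2260, 2800 and 2861 against 1783, 2789 and 2303 (log2 -0.22).

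The COPII coat, which buds from the ER, had 11 probe sets of 8 genes with a median of -0.18, and 0 passed the unadjusted p. SEC31B, of the outer layer, was separated with the least spread. It had 161, 159 and 154 in the Large White sows against 130, 138 and 136 in the Chinese Taihu sows (158 ± 3.76 and 135 ± 4.26; log2 -0.23, adjusted p = 0.993). SEC13, the partner of SEC31, had 1194, 1307 and 899 against 744, 1162 and 756 (log2 -0.37). SEC24C, which selects cargo, had 947, 887 and 715 against 704, 709 and 740 (log2 -0.23). Both overlapped between the breeds. SEC23A, the GTPase activator of the inner layer, varied most among the coat genes. Its probe sets had 417 and 229 in Chinese Taihu sow 1 and 1699 and 779 in Chinese Taihu sow 2, the lowest and highest of the 6 arrays on both, and log2 differences of 0.02 and 0.03. Without Chinese Taihu sow 1 the differences were 0.62 and 0.55.

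At the entry to the ER, 11 probe sets of the SEC61 channel, its helpers and the signal peptidase had a median of -0.01. SEC61B, a small channel subunit, had 3747, 3537 and 3089 in the Large White sows against 2964, 2748 and 2815 in the Chinese Taihu sows. They did not overlap (3458 ± 336 and 2842 ± 111; log2 -0.28, unadjusted p = 0.0982, adjusted p = 0.993). SEC62, which helps finished chains into the ER, pointed the other way with 607, 964 and 1287 against 1350, 1076 and 1497 (log2 0.51, SE 0.32). SEC63, the partner of SEC62, had differences of 0.11 to 0.31 on 3 probe sets. In both genes the lowest signal was that of Large White sow 1, and the breeds overlapped.

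The SNARE group, set by gene symbol, had 24 probe sets of 17 genes, 18 of them with a negative difference (median -0.06). At the unadjusted p 2 passed, and 1 of these, SEC22C, is in the group by its symbol alone. STX10, a syntaxin of the trans-Golgi network, had 418, 404 and 319 in the Large White sows against 269, 259 and 250 in the Chinese Taihu sows on one probe set. All Chinese Taihu values were below all Large White values (381 ± 53.5 and 259 ± 9.43; log2 -0.54, SE 0.18, unadjusted p = 0.0221, adjusted p = 0.993). On its other probe set the sows were nearly level, with 1550, 1519 and 1371 against 1571, 1567 and 1548 (log2 0.08). SEC22C, of the SEC22 family that acts between ER and Golgi, had 121, 160 and 133 in the Large White sows against 83.2, 84.5 and 119 in the Chinese Taihu sows (log2 -0.54, SE 0.21, unadjusted p = 0.0385, adjusted p = 0.993). The gap between the breeds was narrow there, since Chinese Taihu sow 3 nearly reached Large White sow 1. The RefSeq span of SEC22C overlaps those of NKTR and SS18L2.

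STX4, the syntaxin of exocytosis at the plasma membrane, passed the test on 0 of its 2 probe sets. The brighter had 911, 1211 and 869 in the Large White sows against 549, 662 and 836 in the Chinese Taihu sows (log2 -0.55, SE 0.24, unadjusted p = 0.0616, adjusted p = 0.993). The other had a difference of -0.36. STX8, of late endosomes, had 2096, 1405 and 1419 against 994, 1607 and 575 on the more variable of its probe sets (log2 -0.73, SE 0.40). Here Chinese Taihu sow 2 lay inside the Large White range. VAMP3, of recycling endosomes, and VAMP2, of regulated exocytosis, were chosen after their values were seen and differed by 0.11 each (95% intervals -0.31 to 0.53 for both).

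Sorting nexins bind endosome membrane through a phosphoinositide and shape tubules that carry receptors away. Their 20 probe sets of 14 genes had a median of -0.02, and 0 passed the unadjusted p, with SNX5 closest. SNX5, a curved nexin that works with the retromer, had 964, 845 and 1192 in the Large White sows against 1706, 1624 and 1155 in the Chinese Taihu sows on one probe set, where only Chinese Taihu sow 3 lay inside the Large White range (log2 0.57, SE 0.24, unadjusted p = 0.0507, adjusted p = 0.993). On the other it had 1548, 1410 and 1486 against 1821, 2291 and 1762, without overlap (log2 0.39, SE 0.18, adjusted p = 0.993). Both probe sets passed the unadjusted p under quantile normalization. The span of SNX5 overlaps that of MGME1. SNX6, its close relative, lay between -0.04 and 0.20 on 4 probe sets. SNX17, which recycles members of the LDL receptor family, had 1621, 1873 and 1498 against 1152, 1325 and 1335, without overlap (log2 -0.39, SE 0.18, unadjusted p = 0.0699, adjusted p = 0.993). Its other probe set had a difference of -0.21, with overlap.

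SNX22, a less studied nexin, was chosen after its values were seen. Its probe set had 7682 to 9129 in the Large White sows against 6518 to 9101 in the Chinese Taihu sows (log2 -0.19, 95% interval -0.57 to 0.19). The RefSeq span of SNX22 overlaps that of PPIB, a folding enzyme of the ER, and 0 compared probe sets carry the symbol PPIB, so which of the transcripts this signal comes from cannot be told apart. Of the 120 member genes, 23 overlap another protein-coding gene in this way, VPS52 with the ribosomal protein gene RPS18 among them.

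The retromer, which pulls receptors from endosomes back to the Golgi and the surface, had 6 probe sets of 3 genes with a median of 0.20. VPS26A supplied 3 of the 6, so this median leans on 1 gene. VPS26A, a core subunit, had differences of 0.31 to 0.46 on its 3 probe sets, with 0 at the unadjusted p. The brightest had 634, 791 and 1234 in the Large White sows against 1330, 1000 and 1214 in the Chinese Taihu sows, with overlap through Large White sow 3 (log2 0.46, 95% interval -0.24 to 1.16, adjusted p = 0.993). Its paralog VPS26B had 1706, 1588 and 1281 against 1055, 1444 and 1053 on the brighter probe set (log2 -0.37, 95% interval -0.90 to 0.16). VPS29, a further core subunit, was chosen after its values were seen and differed by -0.04.

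ESCRT complexes sort receptors into vesicles inside the endosome on the way to the lysosome. Of 8 probe sets, 7 had a negative difference (median -0.24), and 0 passed the unadjusted p. VPS37B, a subunit of ESCRT-I, had 522, 1043 and 902 in the Large White sows against 365, 518 and 541 in the Chinese Taihu sows (log2 -0.75, SE 0.32, unadjusted p = 0.056, adjusted p = 0.993). Large White sow 1 lay inside the Chinese Taihu range. VPS37D, a related subunit, was the 1 with a positive difference (log2 0.21, SE 0.35, adjusted p = 0.993). It had 352, 290 and 375 in the Large White sows against 656, 341 and 267 in the Chinese Taihu sows, with overlap. Without Chinese Taihu sow 1 the difference was -0.16. VPS28, of the same complex, had differences of -0.50 and -0.36 on its probe sets, with overlap. VPS4A, the ATPase that takes the complex apart, had a difference of -0.28 without overlap on one probe set (153, 148 and 139 against 122, 107 and 135) and of -0.15 with overlap on the brighter one.

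The HOPS and CORVET complexes tether endosomes and lysosomes before fusion, and 9 of their 10 probe sets had a negative difference (median -0.12). VPS39, a HOPS subunit that binds RAB7, had the smallest p of all members. Its signals were 214, 232 and 158 in the Large White sows against 91.8, 137 and 129 in the Chinese Taihu sows, without overlap (202 ± 38.5 and 119 ± 24.2; log2 -0.76, SE 0.24, unadjusted p = 0.0166, adjusted p = 0.993). Its other probe set was level, with 244, 278 and 270 against 234, 273 and 267 (log2 -0.03, 95% interval -0.42 to 0.36). VPS41, the subunit at the other end of HOPS, had 1882, 1951 and 1770 in the Large White sows against 2082, 2126 and 2282 in the Chinese Taihu sows, all of the latter higher (log2 0.21, 95% interval -0.15 to 0.57, adjusted p = 0.993). VPS33A and VPS18, of the core that both complexes share, had differences of -0.27 and of -0.30 and -0.20, and 1 VPS18 probe set was without overlap (120, 153 and 127 against 114, 118 and 116).

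Another 11 probe sets fell in no such group (median -0.07, 0 at the unadjusted p). VPS13C, which carries lipids between membranes, had 71.2, 127 and 138 against 176, 122 and 136 (log2 0.41, 95% interval -0.31 to 1.13). VPS45, a SNARE helper, and VPS53, of the tether at the Golgi, had differences of -0.18 and -0.10. VPS72 shares the name only and is a chromatin protein. Its brighter probe set had 314, 371 and 322 against 272, 292 and 224, without overlap (log2 -0.36, adjusted p = 0.993).

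The clathrin adaptors had the lowest median of the role groups, -0.30 over 15 probe sets of 9 genes, 12 of them negative, and 1 passed the unadjusted p. AP1M1, the mu subunit of the trans-Golgi adaptor AP-1, had 318, 326 and 237 in the Large White sows against 230, 203 and 198 in the Chinese Taihu sows. The groups came close, at 237 and 230.4, without overlap (294 ± 49.4 and 210 ± 17.5; log2 -0.47, SE 0.19, unadjusted p = 0.0485, adjusted p = 0.993). Its dimmer probe set had 97.0, 83.7 and 57.8 against 69.4, 100.1 and 84.2, with a difference of the opposite sign (log2 0.11). AP1S1, the sigma subunit of AP-1, had 1135, 879 and 596 against 512, 849 and 433 (log2 -0.55, SE 0.35).

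AP2S1, the sigma subunit of the plasma membrane adaptor AP-2, had differences of -0.70, -0.68 and -0.66 on 3 probe sets, which share a target and are not independent. On the brightest it had 3959, 4311 and 3050 in the Large White sows against 1712, 3470 and 2059 in the Chinese Taihu sows (3773 ± 651 and 2414 ± 931; SE 0.30, unadjusted p = 0.0558, adjusted p = 0.993). Chinese Taihu sow 2 lay inside the Large White range on 3 of 3 probe sets. Without it, a sow singled out after its values were seen, the differences were -0.99, -0.93 and -0.87. Calls over all compared probe sets also rose in that setting, from 741 to 1225. Without Chinese Taihu sow 1 the differences were -0.48, -0.42 and -0.42, and without Large White sow 2 they were -0.59, -0.56 and -0.56. AP2M1, the mu subunit of AP-2, followed the same order of the Chinese Taihu sows, with 5919, 6174 and 4675 against 3384, 5601 and 4290 (log2 -0.36, SE 0.22, adjusted p = 0.993). AP2B1, the beta subunit, differed by -0.13 and -0.06. AP2M1 and AP2B1 were chosen after their values were seen. The per-sow median of the adaptors, as the log2 signal minus the median over the arrays, was -0.28 in Chinese Taihu sow 1, where that of 13 granulosa cell markers was -1.78 and that of 8 theca and steroid synthesis markers -3.09. In Large White sows 1, 2 and 3 the adaptor medians were 0.21, 0.27 and -0.05. The granulosa medians there were 0.21, -0.14 and -0.02, and the theca medians 1.41, 0.04 and 0.07. In Chinese Taihu sows 2 and 3 the adaptor medians were 0.02 and -0.19. The granulosa medians there were 0.21 and 0.10, and the theca medians 1.76 and -0.44. The part of these markers in the adaptor values was not tested.

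**Figure D2:**
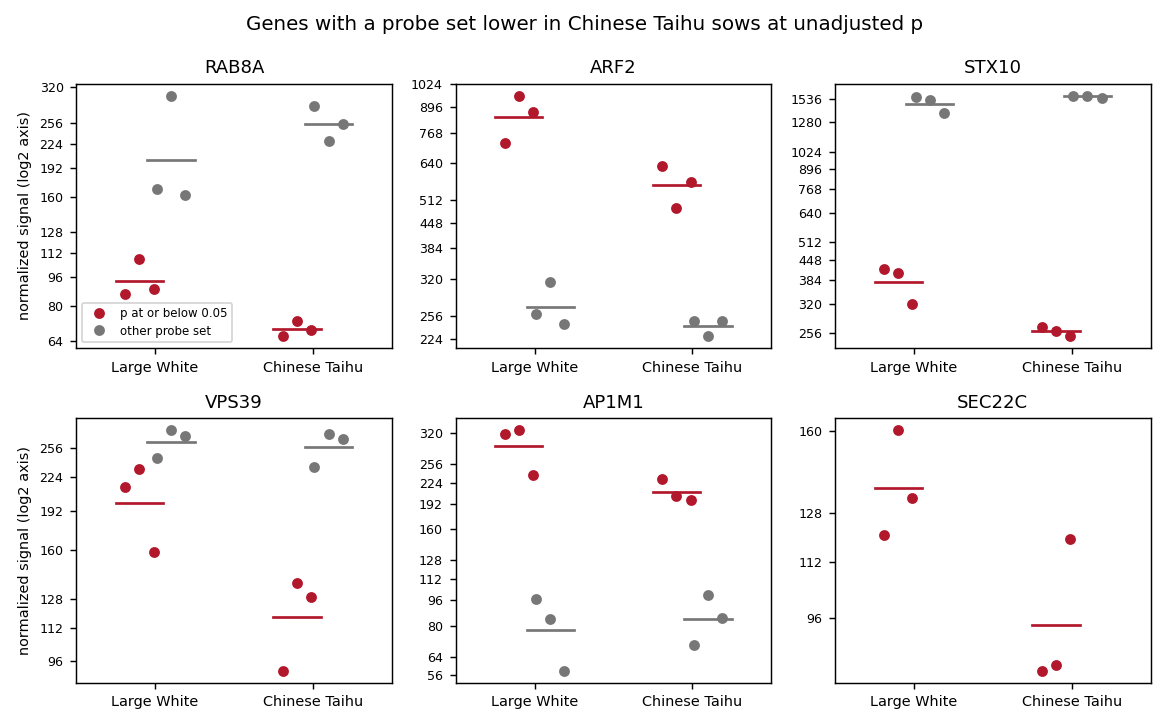
Normalized signal (y axis, log2 scale) in 3 Large White and 3 Chinese Taihu sows (x axis) for the 6 genes with a probe set lower in Chinese Taihu sows at an unadjusted p of at most 0.05 (red) and for the other probe set of the gene where there is one (grey); each point is 1 sow and each line a geometric mean. The grey probe sets of STX10 and VPS39 are level between the breeds, and that of RAB8A has the opposite sign.

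Of these 6 genes, 5 had another probe set among the members, and its p was above 0.05 in all 5. Large White sow 2 had the highest signal on 5 of the 6 probe sets, and without it 0 of the 6 passed, while calls over all compared probe sets went from 741 to 373. The log2 differences of the 6 kept their sign and were then -0.34 for RAB8A, -0.50 for ARF2, -0.50 for STX10, -0.43 for SEC22C, -0.65 for VPS39 and -0.39 for AP1M1, with unadjusted p from 0.0585 to 0.147. The other RAB8A probe set was then the 1 member called higher in Chinese Taihu sows. Leaving out any other sow kept 2 to 4 of the 6. With 3 sows against 2 a given difference has a larger error.

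Several probe sets were present for 45 of the 120 genes, which allowed a check of each difference within the same RNA. All probe sets of a gene had the same sign in 33 of them. The spread of the log2 differences within a gene was under 0.5 in 41 and over 1 in 0. The widest were RAB8A (-0.44 and 0.33), VPS39 (-0.76 and -0.03), STX10 (-0.54 and 0.08) and AP1M1 (-0.47 and 0.11), which are 4 of the genes that supplied the calls. SNX5, VPS26A and AP2S1 kept their sign on every probe set.

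**Figure D3:**
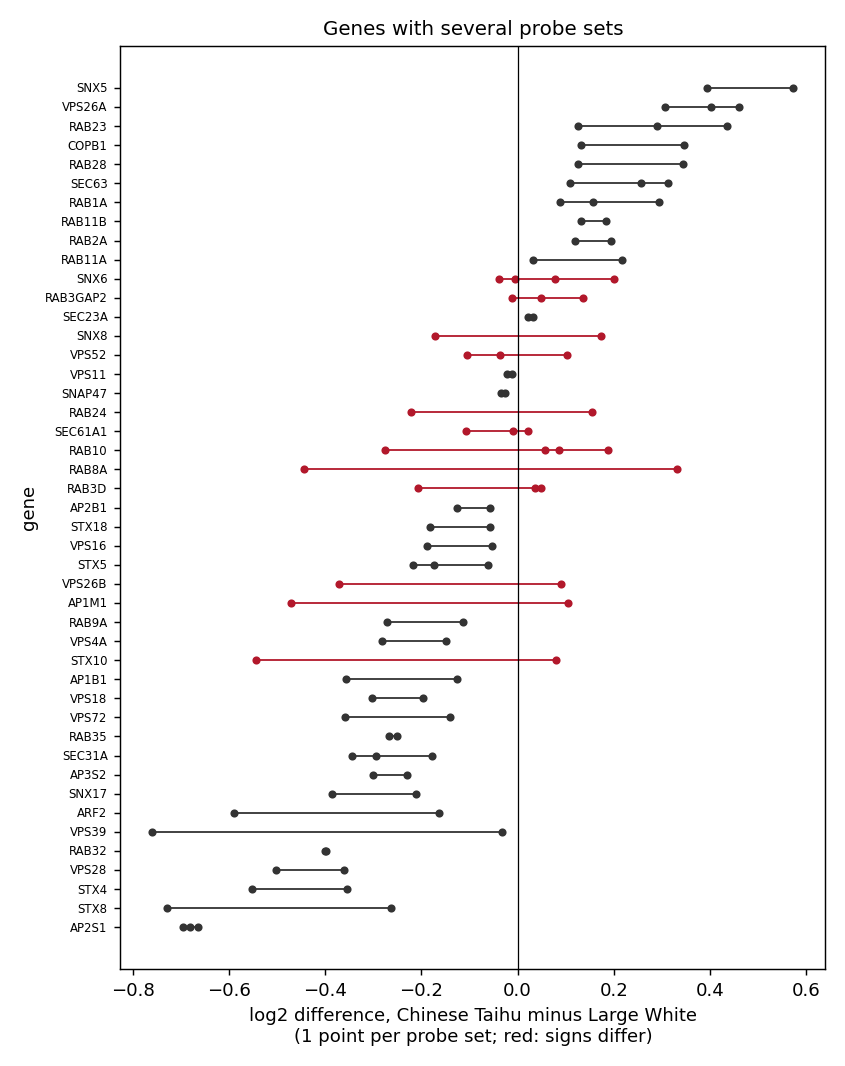
Log2 difference (x axis, Chinese Taihu minus Large White) of each probe set of the 45 genes with several member probe sets (y axis); points of 1 gene are joined, and red marks the 12 genes whose signs differ. The 3 points of AP2S1 lie close together between -0.70 and -0.66, and RAB8A, VPS39, STX10 and AP1M1 have the longest lines.

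Larger contrasts than those between the breeds were seen between single sows. In 7 member probe sets (3.89%, against 6.21% of all compared probe sets) 1 sow exceeded the next by at least 1 on the log2 scale, and in 0 (against 2.85%) 1 sow fell as far below the others. These were RAB15, RAB19 and RAB3IP in Chinese Taihu sow 1, RAB27B in Chinese Taihu sow 2, RAB23 on 2 probe sets in Chinese Taihu sow 3, and SNX10 in Large White sow 2.

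RAB19, a little-studied RAB, had 494.6 in Chinese Taihu sow 1, against 67.7 to 89.2 in the other 5. The same sow was the only one above 50 on its other probe set, which did not pass the signal level (153 against 35.8 to 42.8). RAB3IP, the exchange factor that switches RAB8 on and helps to build the primary cilium, had 968 there and 149 to 273 elsewhere. RAB15, of the recycling endosome, had 314 and 33.7 to 76.8. Without this sow the log2 breed difference went from 0.96 to 0.09 for RAB19 and from 0.83 to 0.07 for RAB3IP. For RAB15 it went from 0.28 to -0.78. RAB15 would not have passed the signal level of 50 without this sow, and its remaining signals, 33.7 to 76.8, lay around that level. The same array carried the epithelial and oviduct transcripts. The summed signal of 11 epithelial markers was 39419 in Chinese Taihu sow 1, 2058 to 6836 in Large White sows and 2128 and 2232 in the other Chinese Taihu sows. EPCAM, which joins epithelial cells, had 7761 against 140 to 1653. The sum of 7 cilium and oviduct markers was 34551 there and 1026 to 4878 elsewhere. None of these markers was at 0. Their part in the 3 traffic genes was not tested. Large White sow 3, second in EPCAM, had 89.2 for RAB19, 196 for RAB3IP and 58.8 for RAB15.

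SNX10, an endosomal nexin known from osteoclasts, had 1355 in Large White sow 2 and 241 to 417 in the others. STX11, a syntaxin of granule release in lymphocytes and natural killer cells, had 601 there and 102 to 318 elsewhere. RAB32, a RAB of lysosome-related organelles that was chosen after its values were seen, had 1520 and 644 to 770 on one probe set and 579 and 220 to 365 on the other. All 3 genes were highest in the same sow. Without it the log2 differences went from -0.50 to 0.29 for SNX10, from -0.77 to -0.29 for STX11 (without Large White sow 1 it was -1.29, unadjusted p = 0.0484), and from -0.40 to -0.05 and from -0.40 to -0.10 for RAB32. The 15 leukocyte markers summed to 29428 in this sow, to 5565 and 7325 in the other Large White sows and to 6299 to 11229 in Chinese Taihu sows. TYROBP, a signalling adaptor of myeloid cells, had 5138 against 534 to 1011. The T cell markers CD3D, CD3E and CD2 went another way, with 179, 95.4 and 115 in Large White sow 2. All 3 were highest in Chinese Taihu sow 1 (193, 130 and 169), where STX11 was lowest (102). Chinese Taihu sow 3, with the second highest leukocyte sum (11229), had 241 for SNX10, the lowest signal of that gene. It had 250 for STX11 and 770 and 302 for RAB32. None of the markers was at 0, and their part in these genes was not tested. VAMP8, a SNARE of regulated secretion also chosen after its values were seen, was high in both of these sows, at 3193 (Large White sow 2) and 3939 (Chinese Taihu sow 1), against 1584 to 1988 in the other 4.

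RAB23, which restrains Hedgehog signalling at the cilium, had 1984 in Chinese Taihu sow 3, against 494 to 771 in the others on its brightest probe set. A further probe set had 1120 and 217 to 423, and the dimmest 450.0 and 264 to 369. All 3 had their highest signal in the same sow. RAB23 was chosen after its values were seen. RAB27B, which docks secretory granules, ranged from 45.5 in Chinese Taihu sow 1 to 420 in Chinese Taihu sow 2, with 179, 63.3 and 206 in Large White sows. Chinese Taihu sow 2 also had the highest signal for 6 of 8 theca and steroid synthesis markers. CYP17A1, which makes androgens, had 1886 in this sow, against 86.1 to 459 elsewhere. The 8 markers summed to 58153 in this sow and to 53920 in Large White sow 1, where RAB27B had 179. In Large White sow 3, with 206 for RAB27B, they summed to 15240. The part of such cells in the RAB27B signal was not tested.

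**Figure D4:**
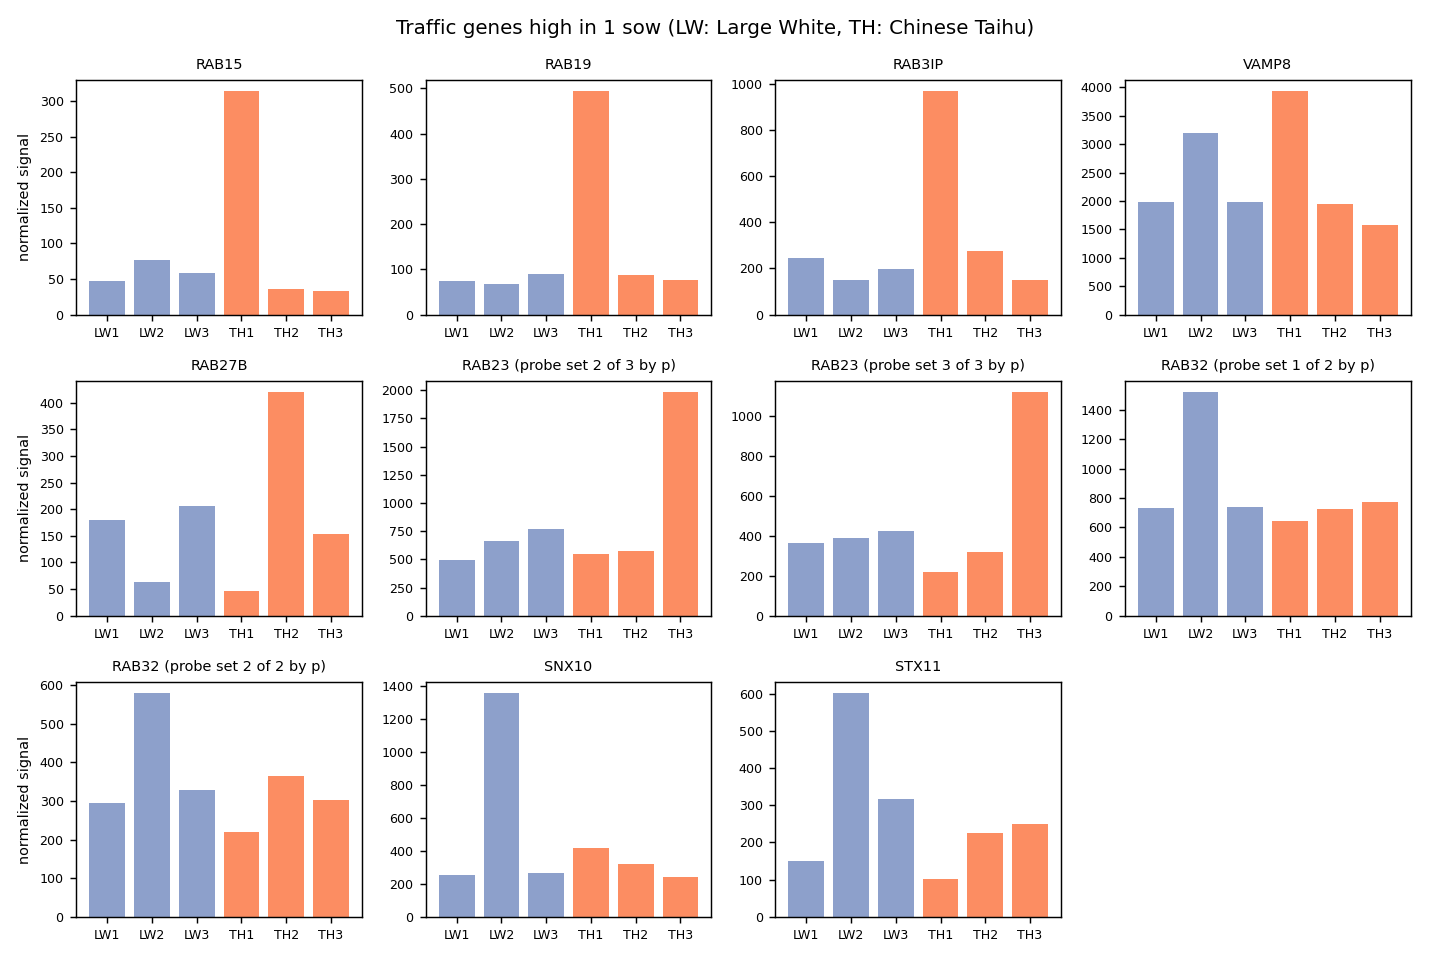
Normalized signal (y axis, linear and starting at 0) in each of 3 Large White (LW, blue) and 3 Chinese Taihu (TH, orange) sows (x axis) for the 7 member probe sets in which 1 sow exceeded the next by at least 1 on the log2 scale, and for STX11, RAB32 and VAMP8. RAB15, RAB19 and RAB3IP rise above the rest in Chinese Taihu sow 1 (314, 494.6 and 968), and SNX10 and RAB32 in Large White sow 2.

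Below such single sows the traffic genes shared smaller shifts. Large White sow 2 had the highest signal in 56 of the 180 members (31.1%), against 14.7% of all compared probe sets, and its median over the members was 0.11 above the median of the arrays. Chinese Taihu sow 1 had the highest signal in 11.1% of the members and in 23.5% of all, and its member median was -0.08. In the other 4 sows this median lay between -0.02 and 0.01. By role, Large White sow 2 was highest in 9 of 15 clathrin adaptor and 6 of 10 HOPS and CORVET probe sets. Large White sow 1 was highest in 5 of 8 ESCRT probe sets (19.3% of all compared probe sets). Chinese Taihu sow 3 was highest in 6 of 11 probe sets of the ER channel and signal peptidase and in 4 of 8 of the COPI coat (16.1% of all). Those 6 belong to SEC61A1, SEC62 and SEC63 only, so genes are counted more than once. No test was made of these counts.

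**Figure D5:**
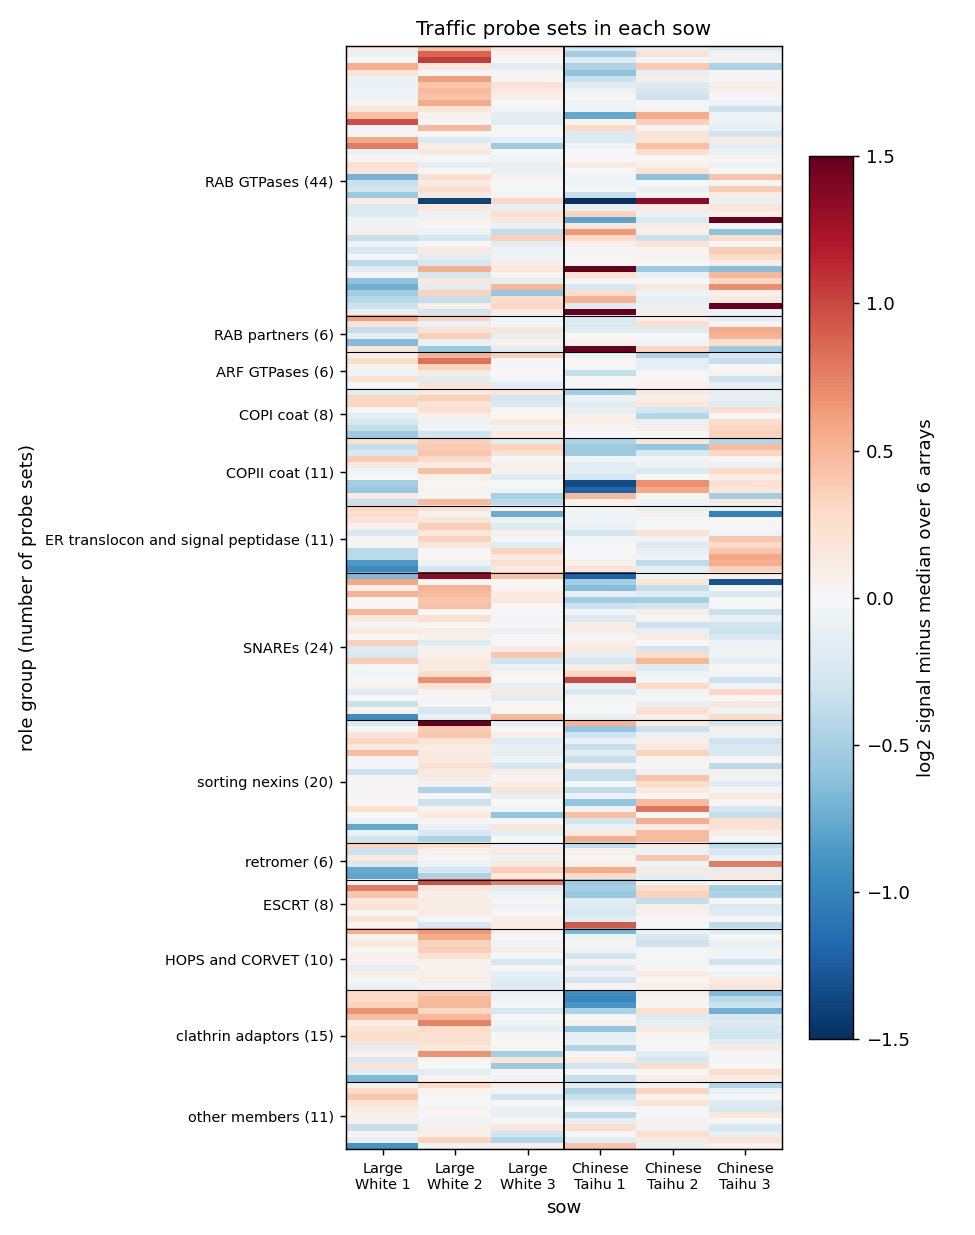
Each of the 180 traffic probe sets (rows, grouped by role and ordered within a role by the breed difference) in 3 Large White and 3 Chinese Taihu sows (columns); the colour is the log2 signal minus the median of the probe set over the 6 arrays, limited at -1.5 and 1.5. Large White sow 2 is mostly red in the ARF, HOPS and adaptor groups (ARF median 0.26), and the darkest single cells include RAB15, RAB19, RAB23 and SNX10, each high in 1 sow.

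Genes of the same routes whose symbols lie outside the rule were counted by their brightest probe set. Of 186 such genes on 6 lists, 109 were compared, with 1 higher and 4 lower in Chinese Taihu sows at an unadjusted p of at most 0.05, 0 at an adjusted p below 0.05, and a median log2 difference of -0.07. Over all 6322 named genes counted in this way, 66 were higher and 168 lower, with a median of -0.04, and of the 120 member genes 0 were higher and 3 lower, with a median of -0.06. The gene that was higher was GOLGA5, a Golgi tether, with 135, 123 and 118 in the Large White sows against 192, 139 and 184 in the Chinese Taihu sows (log2 0.44, SE 0.18, adjusted p = 0.993). PICALM, which works with AP-2 in clathrin-coated pits, had 731, 1441 and 1066 against 161, 280.4 and 261, without overlap (log2 -2.19, SE 0.34, adjusted p = 0.479), the largest difference among the 109. YKT6, a SNARE of Golgi and autophagosome, had 1951, 3269 and 1397 against 735, 1237 and 846, without overlap (log2 -1.18, SE 0.37, adjusted p = 0.993). TBC1D20, which switches RAB1 off, had 559, 1384 and 825 against 466, 402 and 511, without overlap (log2 -0.91, SE 0.35, adjusted p = 0.993). DAD1, a subunit of the enzyme that attaches sugars in the ER, had 9046, 7462 and 5869 against 3433, 6429 and 4162, with overlap through Chinese Taihu sow 2 (log2 -0.70, SE 0.28, adjusted p = 0.993). By list, 0 of 9 exocyst and secretion genes, 1 of 34 of ER export and Golgi, 1 of 17 of signal recognition and ER entry, 1 of 19 of clathrin and endocytosis, 1 of 12 of the fusion machinery and 1 of 18 RAB and ARF regulators passed.

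The signal level of 50 shaped the edge of the group. Just inside it, RAB26 had 36.1 to 88.5 and SNAP25 48.8 to 70.8 over the 6 arrays. RAB15 passed this level only with the 314 of Chinese Taihu sow 1, against 33.7 to 76.8 on the other arrays. Of the 5 probe sets outside it, that of SNAP91 (32.3 to 45.9) and the second of RAB19 lay nearest. Further sets of SNX14 and SEC61G (19.6 to 29.5 over both) and of VPS13C (0.0 to 5.01) lay far below. SNAP91, an adaptor of neuronal synapses, was the 1 gene with no other probe set.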

How the data were processed

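Total RNA (5 µg) of the follicles of each sow was labelled and hybridized to 1 Affymetrix porcine array. The authors made the deposited signal intensities with MAS5 (version 2.3.1 in the submitters' processing notes), scaled to a target of 500, followed by invariant set normalization in dChip. They are linear intensities, and the number of arrays limits their precision. After removal of 188 control probe sets and with a floor of 1, log2 values of probe sets above 50 on at least 3 arrays were fitted by breed with limma 3.58.1 in R 4.3.3 (variance trend, 2-sided, Benjamini-Hochberg over all 19196). Summaries used pandas 2.3.3 under Python 3.11.15. The procedure was tested on simulated data. An exact permutation test of 3 against 3 cannot give a p below 0.1 and was not used.

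The probe table supplied the symbols, and of the 180 members 179 matched a RefSeq gene ID (Sscrofa11.1), with 0 changed symbols. Overlapping genes were taken from the same table. A further 5 probe sets that name several genes were left out. Named genes were all members with an unadjusted p of at most 0.05, the 3 with the smallest p and the 2 with the widest range in each role group, genes whose probe sets differ by over 1, and partner genes at that p; others are marked in the text or serve as values at the signal level or gene overlaps. Members, role groups and lists were chosen with earlier results of these data known. Levels of different genes were not compared. Probe sets of 1 gene were ordered by signal only to name them or to choose 1 per gene. The alternatives tried were median scaling, quantile normalization, other filters, an offset of 16, array weights, a constant prior variance, the replicate number as a block, the methods' t-test, each sow left out, and 1 probe set per gene. Chromosome positions were not used here.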

Additional observations from a re-analysis of the deposited data

How the results depend on the processing

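Under every alternative run, 0 members had an adjusted p below 0.05, and the median log2 difference of the members stayed negative, from -0.12 to -0.030 when 1 sow was left out. The counts at unadjusted p moved more. The 6 lower members ran from 0 to 11 and the 0 higher members from 0 to 2 when 1 sow was left out, 0 of the 6 being kept without Large White sow 2. Higher members were 2 with quantile normalization and with the methods' t-test, and 1 with array weights and with a constant prior variance. Lower members were 13 with array weights (1303 calls over all probe sets in either direction, against 741). They were 3 with a signal above 100 on all 6 arrays (509) and 3 with 1 probe set per gene. The cause was not tested, apart from the fewer probe sets in the last 2 settings (156 and 120). The array weights were 0.68, 2.78 and 1.07 for Large White sows 1, 2 and 3. Those of the Chinese Taihu sows were 0.54, 0.65 and 1.41, so Large White sow 2 counted most. None of the 6 changed sign under an alternative, whereas RAB15, at 0.28 with all sows, was -0.78 without Chinese Taihu sow 1 (unadjusted p = 0.0199 in limma). With the replicate number as a block, 0 members were higher and 6 lower, 3 of them the same as without it. Same-numbered sows had correlations of their deviations from the breed means of -0.17, -0.14 and 0.27. Pairs with different numbers ran from -0.48 to 0.51. Deviations from a mean of 3 sows are tied to each other, so these values cannot show whether same-numbered sows shared a batch. The p-values rest on 3 sows per breed.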
